A study of Mus musculus with 6 samples.

Results

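The members are the genomic sites (peaks) of Smad4 in mouse molar tooth germ and in limb, taken as all peaks of the 2 Smad4 lists. There were 34561 molar and 29756 limb peaks, together 64317 of the 123182 peaks in its 4 peak lists. A peak was called shared when it overlapped a Smad4 peak of the other tissue by at least 1 bp, and restricted otherwise. By that rule 153 molar and 154 limb peaks were shared, and 34408 molar and 29602 limb peaks were restricted. Both tissues came from wild-type mice of the outbred CD1 stock at stage E13.5, when molars are at the bud stage. Chromatin was fixed with 1% formaldehyde for 15 min, precipitated with an antibody to Smad4 from Abcam, and sequenced (ChIP-seq). The pSmad1/5 lists of the same tissues, 35476 molar and 23389 limb peaks, served as a second readout, and the 2 input samples were not analysed here. Each list is 1 library, so no difference between tissues has a replicate check and no p-value is given. Intervals given with shares are 95% binomial by the exact Clopper-Pearson method and allow for counting error over peaks alone. Read counts are not part of the lists, and the depth of sequencing is unknown. Expression was not measured, so the tissue labels could not be checked against marker genes, and the proportions of epithelium, mesenchyme and other cells in each sample are not given in the sources used here.

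Smad4 is the partner that receptor-activated Smads share. Smad1, Smad5 and Smad9 carry signals of bone morphogenetic proteins (BMPs), Smad2 and Smad3 those of TGF-beta and activins, and both sets enter the nucleus in complexes with Smad4. The complexes bind short DNA elements, among them the Smad box CAGAC and GC-rich elements such as GGCGCC, usually together with factors particular to a cell type. In tooth germs BMP4 passes between epithelium and mesenchyme and works with Msx1 and Pax9. In the limb the same ligands act in outgrowth, in the loss of tissue between digits and in cartilage condensation.

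The sites held by Smad4 in both tissues are shown first, where a promoter sequence was at hand. Promoter windows from RefSeq on GRCm38.p6 reach from 250 bases before to 50 after an annotated start. Of 32851 such windows 11 held overlapping molar and limb peaks. The sequences printed are those of the 6 sites whose overlap lies at least in part before the start. They hold only bases before it, 5′ to 3′ on the gene's strand, with up to 20 flanking bases. Capitals mark bases under both a molar and a limb peak. They come from chr17:25985602-25985669 (+) at 1700022N22Rik, chr17:12318758-12318844 (−) at Map3k4, chr7:142095331-142095426 (−) at Dusp8, chrX:7605438-7605503 (−) at Ccdc22, chrX:9199825-9199927 (+) at Lancl3 and chrX:71962831-71962981 (+) at Prrg3.
1700022N22Rik: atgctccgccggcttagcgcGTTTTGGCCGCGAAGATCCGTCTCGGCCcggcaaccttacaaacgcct
Map3k4: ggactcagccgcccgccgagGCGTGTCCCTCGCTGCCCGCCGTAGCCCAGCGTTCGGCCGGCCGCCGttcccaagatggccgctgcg
Dusp8: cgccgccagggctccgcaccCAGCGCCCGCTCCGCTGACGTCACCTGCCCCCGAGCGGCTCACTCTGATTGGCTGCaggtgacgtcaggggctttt
Ccdc22: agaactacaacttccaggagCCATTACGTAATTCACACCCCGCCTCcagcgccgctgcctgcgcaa
Lancl3: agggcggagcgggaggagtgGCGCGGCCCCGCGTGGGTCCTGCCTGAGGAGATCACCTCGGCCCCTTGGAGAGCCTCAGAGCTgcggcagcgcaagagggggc
Prrg3: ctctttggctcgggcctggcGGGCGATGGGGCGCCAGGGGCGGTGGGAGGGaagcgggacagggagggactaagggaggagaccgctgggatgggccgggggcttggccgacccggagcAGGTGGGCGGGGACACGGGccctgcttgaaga
The Map3k4 stretch is also the upstream region of 4732491K20Rik, which is transcribed from the opposite strand. At Prrg3 a single molar peak overlapped 2 limb peaks, which gives the pair of capital runs and the difference of 1 between the shared counts. GGCGCC was found once in the Prrg3 stretch and in none of the other 5, and CAGAC and its palindromic form GTCTAGAC in none of the 6, on either strand. Map3k4 and Dusp8 encode regulators of MAP kinase signalling, a kinase and a phosphatase. The molar and limb scores (the authors' enrichment score per peak) were 3.01 and 5.42 at 1700022N22Rik, 3.26 and 3.74 at Map3k4, and 3.11 and 4.35 at Dusp8. On chromosome X, where both lists reach down to a score of 2, they were 2.22 and 2.97 at Ccdc22 and 2.05 and 3.09 at Lancl3.

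The second set of sequences shows limb Smad4 sites at promoters of signalling and transcription factor genes. At these genes the limb list held a promoter peak and the molar list none. Of all genes with a promoter window 6.34% had a limb peak and 1.22% a molar peak there, so most genes had no molar promoter peak. Lhx2 and Tgif2 lie on chromosome 2, where no molar peak scores under 4. Capitals here mark bases under the limb peak. Gdf7 encodes a BMP-family ligand, Gata2 and Foxf2 transcription factors, Lhx2 a LIM-homeodomain factor of the limb bud, and Tgif2 a repressor that binds Smads. The stretches are chr12:8301955-8302053 (−) at Gdf7, chr6:88198414-88198601 (+) at Gata2, chr13:31625722-31625815 (+) at Foxf2, chr2:38351058-38351145 (+) at Lhx2 and chr2:156839757-156839886 (+) at Tgif2.
Gdf7: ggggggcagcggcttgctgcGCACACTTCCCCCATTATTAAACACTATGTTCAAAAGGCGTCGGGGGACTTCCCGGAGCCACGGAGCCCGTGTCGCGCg
Gata2: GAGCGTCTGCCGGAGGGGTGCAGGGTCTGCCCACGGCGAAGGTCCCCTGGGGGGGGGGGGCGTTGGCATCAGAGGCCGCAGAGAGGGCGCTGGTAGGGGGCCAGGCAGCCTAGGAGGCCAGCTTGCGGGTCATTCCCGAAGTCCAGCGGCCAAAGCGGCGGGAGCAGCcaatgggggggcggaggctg
Foxf2: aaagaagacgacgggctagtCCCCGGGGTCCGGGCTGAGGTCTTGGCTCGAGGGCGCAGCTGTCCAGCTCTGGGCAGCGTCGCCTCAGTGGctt
Lhx2: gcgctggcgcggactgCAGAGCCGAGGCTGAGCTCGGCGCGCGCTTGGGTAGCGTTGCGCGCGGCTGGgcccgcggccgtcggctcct
Tgif2: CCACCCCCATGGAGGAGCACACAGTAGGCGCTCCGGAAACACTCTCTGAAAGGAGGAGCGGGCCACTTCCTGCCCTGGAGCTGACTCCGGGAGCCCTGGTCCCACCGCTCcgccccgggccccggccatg
Of these 5 stretches only that of Gata2 holds CAGAC, with 2 matches, and none holds GGCGCC or GTCTAGAC. Their GC content ran from 63.6% at Gdf7 to 78.4% at Lhx2. The limb scores were 6.08 at Gdf7, 5.01 at Lhx2, 4.52 at Gata2, 3.73 at Tgif2 and 3.69 at Foxf2.

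Few Smad4 sites were common to the tissues, and those that were overlapped over short stretches. The shared peaks formed 154 pairs with a median overlap of 32 bp (quartiles 21 and 48, range 1 to 124 bp). The summits of a pair lay a median of 32 bp apart (quartiles 16 and 54, at most 172 bp). Median widths were 57 bp for shared molar and 62 bp for shared limb peaks, close to the 55 and 57 bp of restricted peaks. In 26 pairs the summits stood within 10 bp and in 57 pairs within 25 bp of each other. At the edge of the rule, 11 pairs overlapped by 1 to 5 bp, and 12 further pairs missed an overlap with a gap of 0 to 4 bp. Median molar scores were 3.51 just inside the rule and 4.15 just outside it, and median limb scores were 3.53 and 3.50.

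Close pairs of molar and limb summits were only somewhat more frequent than distant ones. Over all peaks, 218 molar and limb summit pairs lay 0 to 99 bp apart. In the 15 steps of 100 bp from 500 to 1999 bp the median was 154 pairs (range 115 to 190). The nearest step thus held 1.42 times the median of the farther steps, and the step after it held 188 pairs. Where the limb peak stood within 1 kb of a gene end the first step held 42 pairs against a median of 27, a ratio of 1.56, and elsewhere 176 against 128. With both scores at least 4 it held 13 pairs against a median of 12.

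**Figure D1:**
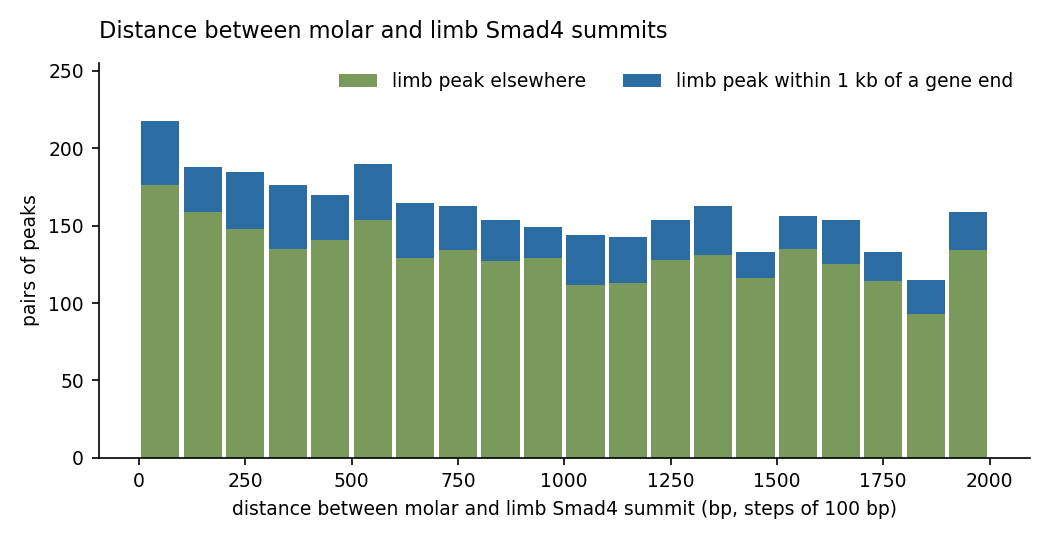
Pairs of molar and limb Smad4 summits (y axis, count) by the distance between them (x axis, bp, steps of 100 bp), split by whether the limb peak lies within 1 kb of a gene end. The first bar, 218 pairs, is the highest, and the bars from 500 bp on lie between 115 and 190.

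The shared sites were of middling rank within each list. The median molar score was 3.40 for shared and 3.38 for restricted peaks, and the median limb score 3.42 for shared and 3.53 for restricted peaks. On the autosomes alone, which leaves out the low-scoring chromosome X, the medians were 3.51 and 3.45 in molar and 3.48 and 3.56 in limb. The highest shared scores were 5.05 in molar and 6.47 in limb, whereas restricted peaks reached 13.97 and 28.7. With the limb list divided into 4 equal parts from the lowest to the highest score, 0.686%, 0.538%, 0.430% and 0.417% of peaks were shared, with overlapping intervals for the lowest (0.511 to 0.900%) and the highest part (0.283 to 0.591%). In the molar list the 4 parts had 0.428%, 0.440%, 0.336% and 0.567%. These parts include chromosome X, where the median limb score was 2.40 and 20 of 1239 limb peaks (1.61%) were shared. How far chromosome X makes up the decline in limb was not tested.

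Ranked by the lower of its 2 scores, the first shared site lay on chromosome 17, 13233 bp from Haao, an enzyme of tryptophan breakdown. Its molar peak at chr17:83862187-83862238 scored 5.05 and its limb peak at chr17:83862169-83862220 scored 6.47. The next lay 795 bp from an end of Sowahc, inside the gene, with scores of 4.80 in molar and 4.69 in limb. Zbtb16, a zinc finger factor of limb skeletal patterning, had an intragenic shared site with scores of 4.38 and 4.43 and summits 4 bp apart. The matrix protein gene Adamtsl1 had a site 639 bp from an end where the peaks overlapped by 3 bp. Maf, a bZIP factor, was the nearest gene to a site 86385 bp away. The remaining 5 of the first 10 lay nearest to Sorcs2, Rbm19, Chst9, Cnnm4 and Zmiz1, with lower scores of 4.11, 4.06, 3.97, 3.93 and 3.91. In 7 of the 154 pairs both scores were at least 4.

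Shared peaks differed in position from molar-restricted peaks and hardly from limb-restricted peaks. By the rule every shared peak lies on a peak of the other list, so its position is tied to where that list has peaks. Of all limb peaks 17.99% stood within 1 kb of a gene end, against 4.83% of all molar peaks. The molar contrasts are therefore descriptions, and nothing is read from them. A summit within 1 kb of either end of a gene was found for 17.6% of shared molar peaks (27 of 153, interval 11.96 to 24.6%) and for 4.77% of molar-restricted peaks (4.55 to 5.00%). In limb it was found for 18.8% of shared peaks (29 of 154, 12.99 to 25.9%) and for 17.99% of restricted peaks (17.5 to 18.4%). The intervals of shared and restricted peaks overlapped in limb and did not overlap in molar. Of the shared molar peaks 9.80% (5.59 to 15.7%) lay more than 50 kb from any gene, against 25.7% of restricted molar peaks (25.2 to 26.2%). The limb values were 9.74% for shared and 11.5% for restricted peaks. Shared sites at gene ends included Foxp1, a forkhead factor, at 216 bp and Gfra3, a co-receptor for the neurotrophic ligand artemin, at 156 bp; Cacybp stood at 39 bp, with scores of 3.51 in molar and 5.54 in limb. The values of these 3 were known when they were chosen.

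The gene ends concerned were mostly 5′ ends, and here too the rule ties the position of shared molar peaks to the limb list. Where the strand is known (chromosome 18 left out), 22 of 142 shared molar peaks (15.5%, 9.97 to 22.5%) lay within 1 kb of a 5′ end and 1 (0.704%) within 1 kb of a 3′ end. For shared limb peaks these numbers were 24 of 143 (16.8%) and 1 (0.699%). Limb-restricted peaks had 11.9% at 5′ ends (11.5 to 12.3%) and 3.42% at 3′ ends (3.21 to 3.64%). Molar-restricted peaks differed little between the ends, with 2.31% at 5′ (2.15 to 2.48%) and 1.83% at 3′ ends (1.69 to 1.98%). On the 13 autosomes where the molar list is dense (defined below) the molar-restricted 5′ share was 2.24%, and on the 6 where it is sparse 3.15%; the limb-restricted shares were 12.2% and 12.01%.

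**Figure D2:**
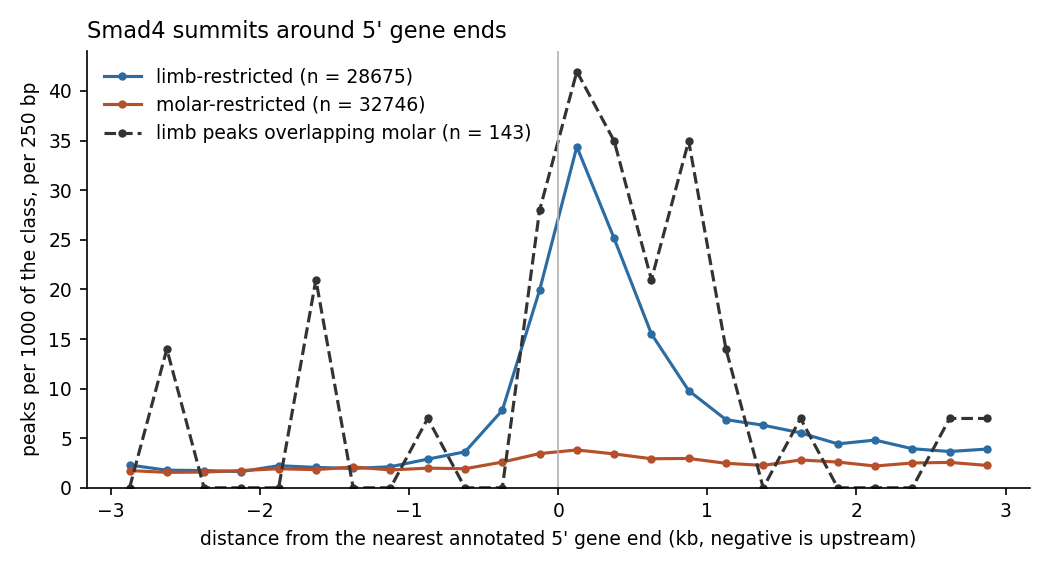
Smad4 summits per 1000 peaks of a class (y axis) in steps of 250 bp from the nearest annotated 5′ gene end (x axis, kb, negative upstream), for limb-restricted peaks (blue, n = 28675), molar-restricted peaks (orange, n = 32746) and limb peaks that overlap a molar peak (dashed, n = 143). Limb-restricted peaks gather around and just inside the 5′ end, the molar-restricted line reaches 3.82 per 1000 just inside the 5′ end against 34.4 for limb, and the dashed line rests on few peaks per step.

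Higher-scoring limb peaks were more often at gene ends. From the lowest to the highest of the 4 score classes the shares were 11.6%, 14.7%, 18.2% and 27.5% in limb and 4.18%, 4.18%, 4.78% and 6.17% in molar. The highest molar class therefore stayed under the lowest limb class (intervals 5.67 to 6.70% and 10.9 to 12.3%).

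At promoters the limb list was richer and its sites more GC-rich. Of 27025 genes with a promoter window, 1713 (6.34%) had a limb peak in a window and 330 (1.22%) a molar peak. Among the 276 genes of the lists described below, 181 had a window, of which 17 held a limb peak and 1, that of the endothelial TGF-beta co-receptor Eng, a molar peak. The 17 were Col9a1, Crim1, Dlx1, Flt1, Foxd3, Foxf2, Gata2, Gdf7, Gli2, Id3, Junb, Lhx2, Ngfr, Ppia, Ptch1, Sfrp2 and Tgif2. Median GC content was 65.3% in the 1804 windows with a limb peak only, 55% in the 317 with a molar peak only and 52.0% in the 30700 with neither. The 11 windows with overlapping peaks had a median of 70.3%, and a median of 30 CpG dinucleotides, against 25, 10 and 6 in the other 3 sets.

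Smad motifs were then counted on both strands of these windows. None of the 3 motifs contains another, and GTCTAGAC and GGCGCC are their own reverse complements. GGCGCC was present in 25% of windows with a limb peak only (23.0 to 27.1%), in 11.7% with a molar peak only (8.35 to 15.7%), in 11.1% with neither and in 11.9% of all windows. Among windows with over 65% GC the limb-only share was 34.7% (31.7 to 37.8%) and the share with neither 37.8% (36.5 to 39.2%). The molar-only share there was 42.9% (28.8 to 57.8%), so limb-only windows had the lowest share. From 55 to 65% GC the shares were 15.9% limb-only, 12.2% molar-only and 14.7% with neither. CAGAC was present in 46.0% of limb-only (43.7 to 48.3%), 55.2% of molar-only (49.5 to 60.8%) and 49.6% of all windows. Among windows with over 65% GC it was present in 40.2% of limb-only (37.1 to 43.4%), 36.7% of 49 molar-only (23.4 to 51.7%) and 41.2% of windows with neither. At lower GC the molar-only share was the higher of the tissues. It was 53.6 against 50% up to 45% GC, 63.2 against 56.7% from 45 to 55%, and 54.8 against 51.7% from 55 to 65%. The intervals of the tissues overlapped in each of these GC ranges. GTCTAGAC was rare, at 0.213% of all windows, 3 of the molar-only and 6 of the limb-only windows. Within windows holding a limb peak, CAGAC occurred 2.05 times per kb under the peak and 2.29 times per kb in the other bases, and GGCGCC 1.29 and 0.989 times, with GC contents of 67.9% and 63.9%. For molar peaks the CAGAC rates were 2.46 and 2.92 per kb, and those of GGCGCC 0.786 and 0.400 per kb, the latter from 15 matches under peaks. A match describes letters in a window and not a bound site.

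Few shared Smad4 sites held pSmad1/5, although in molar the share was larger than among restricted peaks. In molar, 5 of 153 shared peaks (3.27%, 1.07 to 7.46%) overlapped a molar pSmad1/5 peak, against 0.596% of restricted peaks (0.517 to 0.683%). In limb, 7 of 154 (4.55%, 1.85 to 9.14%) overlapped a limb pSmad1/5 peak, against 3.83% of restricted peaks (3.61 to 4.05%). The intervals of shared and restricted peaks did not overlap in molar and did overlap in limb. By the rule shared molar peaks lie on limb peaks. Of all limb peaks 2.29% overlapped molar pSmad1/5, against 0.608% of all molar peaks. The molar difference, which rests on 5 peaks, is therefore a description, and nothing is read from it. In 0 of the 154 pairs did each Smad4 peak overlap pSmad1/5 of its own tissue, and in 142 pairs neither did. Of the shared limb peaks 1 overlapped pSmad1/5 peaks of both tissues, and of the shared molar peaks 0 did. The 5 pairs with molar pSmad1/5 lay nearest to Cnnm4, Supt20, Sema4b, 2510009E07Rik and Capn15, and the 7 with limb pSmad1/5 nearest to Sorcs2, Kiss1r, Dse, Ctif, Dusp8, Tmem9 and Lancl3, all but Sorcs2 and Cnnm4 chosen after their values were seen. Dusp8 and Lancl3 are among the promoters printed above, and the site nearest to Capn15 is the one printed for 1700022N22Rik.

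Seen by chromosome, the 2 lists had different shapes. The molar list held 12.2 to 19.9 peaks per Mb on 13 autosomes and 3.17 to 4.55 on chromosomes 2, 5, 8, 9, 11 and 19, its 6 sparse autosomes, where no molar peak scores under 4. Elsewhere on the autosomes both lists reach down to 3, and the limb list does so on the 6 as well. Limb density ran from 6.07 per Mb on chromosome 9 to 21.0 on chromosome 11. Over the 19 autosomes limb density was inverse to molar density as listed (Pearson's r −0.46, Spearman's rho −0.39). Molar density as listed mixes the score floors of 4 and 3. With a score of at least 4, the molar list held 2809 peaks on the 6 sparse autosomes and 4346 on the 13 others. The limb list then held 2921 and 4656. Whether the inverse relation holds at an equal floor was not tested. The correlations given here describe 19 chromosomes of the same 2 libraries, with no test.

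The number of shared sites varied more with the length of the molar list than with that of the limb list. Across the 19 autosomes it had r 0.77 and rho 0.82 with the number of molar peaks and r 0.12 and rho 0.20 with the number of limb peaks. A shared site is itself counted in both lists. Molar counts ran from 220 to 673 on the 6 sparse autosomes and from 1198 to 3374 on the others. A short list limits how many overlaps can occur, so the correlation with molar counts is a description too. The 6 sparse autosomes had 17 shared sites, 0.605% of their 2809 molar peaks (0.353 to 0.967%) and 0.156% of their 10920 limb peaks (0.0907 to 0.249%). The 13 others had 117, 0.418% of 27995 molar peaks (0.346 to 0.501%) and 0.666% of 17557 limb peaks (0.551 to 0.798%). The sets are defined by the length of the molar list, which sets how many limb peaks can meet a molar peak, so the lower limb share on the sparse autosomes is a description and nothing is read from it. The intervals of the molar shares overlapped.

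The shared sites were then counted on each chromosome. On chromosome 11, with 555 molar and 2566 limb peaks, 3 sites were shared (0.117% of limb peaks, 0.0241 to 0.341%). Chromosome 2 had 5 shared sites among 2631 limb peaks, chromosome 5 had 5 among 2316, chromosome 8 had 3 among 1711, chromosome 9 had 1 among 755, and chromosome 19 had 0 among 941 (upper bound 0.391%). On the dense autosomes the limb share ran from 0.324% on chromosome 15 to 1.18% on chromosome 18 (11 of 936, 0.588 to 2.09%). Chromosome 4 had the most shared sites of an autosome, 15, among 3029 molar and 2323 limb peaks. Chromosome X had 19 shared among 3713 molar and 20 among 1239 limb peaks (1.61%, 0.989 to 2.48%), chromosome Y had none among 44 and 38, and the limb list placed 2 peaks on mitochondrial DNA.

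**Figure D3:**
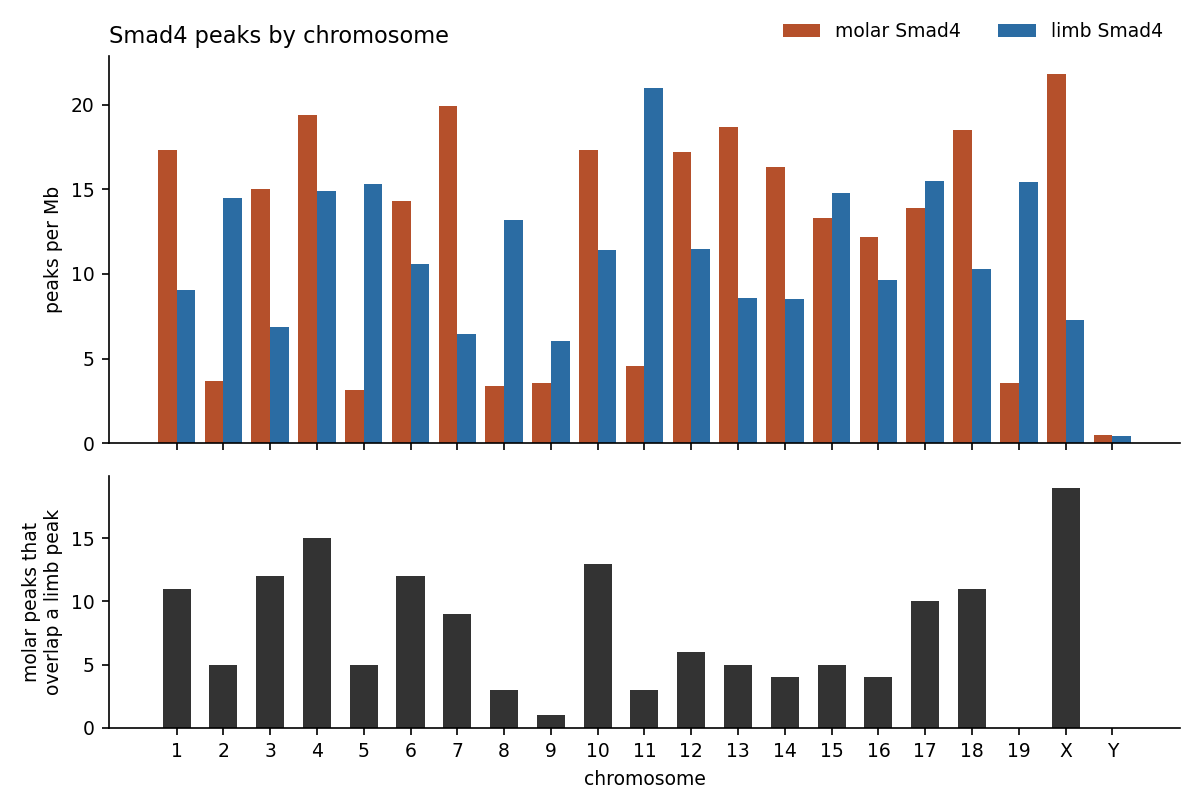
Smad4 peaks per Mb (upper panel, y axis) in molar (orange) and limb (blue) and the number of molar peaks that overlap a limb peak (lower panel, y axis), by chromosome (x axis). Molar bars fall to 3.17 to 4.55 per Mb on chromosomes 2, 5, 8, 9, 11 and 19, and 0 to 5 shared peaks are found on each of them.

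Gene density related to the position of molar peaks and hardly to that of limb peaks. Over 19 autosomes the share of molar peaks near a gene end had r 0.88 and rho 0.92 with the number of protein-coding genes per Mb. For limb these were −0.13 and −0.08. The molar share was 3.11% on chromosome 18, with 5.64 genes per Mb, and 8.29% on chromosome 11, with 13.2 genes per Mb. The limb shares on those chromosomes were 17.4% and 19.7%. The molar values mix the score floors of 4 and 3. As listed, the molar share was 7.01% on the 6 sparse autosomes and 4.72% on the 13 others. With a score of at least 4 these shares were 7.01% and 6.03%. What the floors contribute to the correlation was not tested.

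Genes were then classed by Smad4 summits inside the gene or within 10 kb of it. Of 21887 protein-coding genes, 3219 (14.7%) had molar peaks only, 4973 (22.7%) limb peaks only, 6480 (29.6%) peaks of both tissues and 7215 (33.0%) neither. The excess of limb-only genes stood on the 6 sparse autosomes. There, 401 of 7609 genes (5.27%) were molar only and 3009 (39.5%) limb only. On the other chromosomes the order turned, with 2818 of 14278 (19.7%) molar only and 1964 (13.8%) limb only. By chromosome the limb-only share of autosomes ran from 7.73% on chromosome 7 to 48.4% on chromosome 11, and the molar-only share from 4.02% on chromosome 5 to 26.8% on chromosome 7. With a minimum score of 4 in both lists there were 2500 molar-only (11.4%) and 3887 limb-only genes (17.8%), and 1543 (10.8%) against 2400 (16.8%) outside the 6 chromosomes. Which tissue had more genes of its own outside the sparse autosomes therefore changed with the score minimum.

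**Figure D4:**
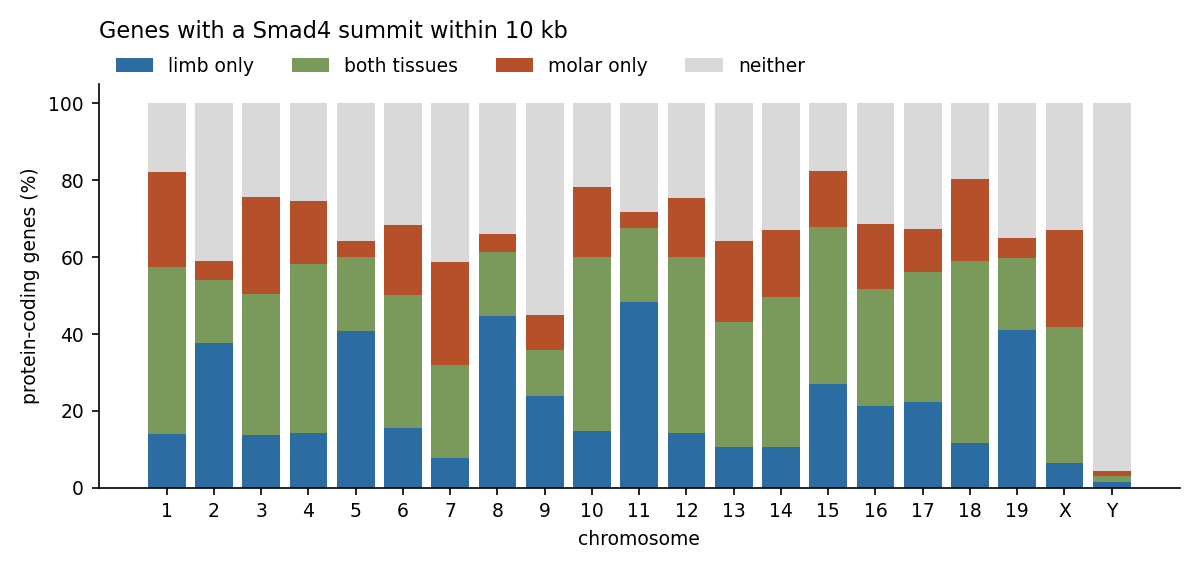
Percent of protein-coding genes (y axis) with a Smad4 summit inside or within 10 kb in limb only (blue), both tissues (green), molar only (orange) or neither (grey), by chromosome (x axis). Blue reaches 23.8 to 48.4% on chromosomes 2, 5, 8, 9, 11 and 19 and orange stays at 4.02 to 9.08% there.

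A gene with peaks in both tissues rarely had them at the same place. Among the 6480 such genes the nearest molar and limb summits lay a median of 4460.5 bp apart (quartiles 1323 and 11790 bp). They lay within 100 bp at 217 genes (3.35%), within 1 kb at 1371 (21.2%) and over 5 kb apart at 3045 (47.0%). Shared sites were found at 163 genes, 2.52% of those with both and 0.745% of all protein-coding genes. Class also went with gene length: 14.4% of genes up to 10 kb and 66.3% of genes over 100 kb had peaks of both tissues. Median lengths were 22.3 kb for molar-only, 15.0 kb for limb-only, 37.9 kb for both and 7.76 kb for neither.

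The pathway genes are given by role, each list beside the 14.7% molar-only, 22.7% limb-only, 29.6% both and 33.0% neither of all genes, or the 19.7%, 13.8%, 36.3% and 30.2% outside the sparse autosomes; no list was tested against these. Of 14 BMP ligand genes 0 were molar only, 6 limb only (42.9%), 6 had both (42.9%) and 2 neither. Outside the sparse autosomes limb-only members numbered 2 of 9, and with a score of at least 4 there were 3 molar-only and 4 limb-only members of 14. Bmp7, a ligand of tooth and limb epithelium and mesenchyme, had 8 limb peaks and 0 molar peaks; the highest scored 6.45 and the nearest stood 13 bp from a gene end. Gdf7 had 3 limb peaks, Bmp8a 3 and Bmp3 1, and none had a molar peak. Of these 4 genes Bmp7 and Bmp3 lie on sparse autosomes. Bmp4, the ligand of early tooth mesenchyme, had both: 1 molar peak at chr14:46388834-46388883 with score 4.29, and 4 limb peaks with a highest score of 3.81. The nearest molar and limb summits at Bmp4 stood 99 bp apart without an overlap. Bmp2 had neither and was chosen after its values were seen.

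Of 12 ligand genes of the TGF-beta and activin branch 3 were molar only (25%), 6 limb only (50%), 2 both and 1 neither. With a score of at least 4 there were 1 molar-only and 4 limb-only members. Inhba, the activin subunit of dental mesenchyme, had 1 molar peak of score 3.12, 866 bp from a gene end, and no limb peak. Mstn had 1 molar peak and Lefty2 had 2. Inhbb, another activin subunit, had 5 limb peaks with a highest score of 4.43, and Nodal had 3 that all scored at least 4. Gdf15 had 2 limb peaks and Gdf11 had 1, and none of these 4 had a molar peak.

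BMP antagonists, which bind ligands outside the cell, were 1 molar only (6.67%), 4 limb only (26.7%), 7 both (46.7%) and 3 neither out of 15, with limb-only and both shares beside 22.7% and 29.6% of all genes. Outside the sparse autosomes 1 of 11 was molar only and 1 limb only, and with a score of at least 4 there were 2 molar-only and 0 limb-only members. Fst (follistatin), which binds activin and BMPs, was molar only, with 1 peak of score 4.44 located 8338 bp from the gene. Chrd (chordin) had 4 limb peaks, and Grem1, Nog and Bmper had 1 each. The Grem1 peak at chr2:113758501-113758593 stood 99 bp from a gene end and scored 3.86. No limb peak at these 4 genes scored 4 or more, and Grem1, Nog and Bmper lie on sparse autosomes.

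Of 14 receptor genes 3 were molar only (21.4%), 1 limb only (7.14%), 7 both (50%) and 3 neither (21.4%), beside 14.7%, 22.7%, 29.6% and 33.0% of all genes. These are long genes, with a median of 88.4 kb. Of all genes over 100 kb 16.6% were molar only and 10.4% limb only. Of genes from 30 to 100 kb, the range that holds this median, 17.9% were molar only and 21.4% limb only. The order of the 2 classes among all genes thus differed between these lengths. What gene length contributes to the receptor counts was not tested. With a score of at least 4, the receptor genes were 4 molar only, 2 limb only, 0 both and 8 neither. Outside the sparse autosomes 7 receptor genes were 2 molar only, 0 limb only, 5 both and 0 neither. The TGF-beta receptors Tgfbr1 and Tgfbr2 were both molar only. Tgfbr1 had 4 molar peaks with a highest score of 6.08, and Tgfbr2 had 1 of score 4.73 on chromosome 9, which is sparse in molar. Bambi, a pseudoreceptor that blocks signalling, had 1 molar peak of score 3.12. The activin receptor gene Acvr2b was limb only, with 1 peak of score 4.95. No receptor gene had a shared site.

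Among 17 Smads and Smad regulators 3 were molar only (17.6%), 6 limb only (35.3%), 6 both (35.3%) and 2 neither (11.8%), beside 14.7%, 22.7%, 29.6% and 33.0% of all genes. Outside the sparse autosomes 2 of 10 were molar only and 2 limb only, and with a score of at least 4 the counts were 2 and 2 of 17. Smad5 and Smad9, which carry BMP signals, had 2 molar peaks each and no limb peak, and Smurf2, a ubiquitin ligase for Smads, had 1 molar peak of score 4.68. Smad3, which carries TGF-beta signals, had 5 limb peaks, the highest of score 5.24 at 356 bp from a gene end, and Tgif2 had 2. The inhibitory Smads Smad6 and Smad7 had 2 limb peaks each and no molar peak. Of these limb-only genes Smad3, Smad6 and Tgif2 lie on sparse autosomes. Smad4 itself had 1 limb peak at chr18:73703802-73703868, 58 bp from a gene end, with score 3.08, and no molar peak.

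BMP-Smad targets numbered 5 molar only (20%), 8 limb only (32%), 10 both (40%) and 2 neither (8%) out of 25, beside 14.7%, 22.7%, 29.6% and 33.0% of all genes. Outside the sparse autosomes, which hold 5 of the 8 limb-only members, the order turned, with 4 molar only and 3 limb only of 15. Of the Id genes, which encode inhibitors of bHLH factors, Id3 had 7 limb peaks and no molar peak, with the highest, of score 4.84, 87 bp from a gene end. Id2 had 1 molar peak of score 3.39, located 9803 bp away, and no limb peak, while Id1 had neither. Msx1, the homeobox factor of dental mesenchyme, had 1 molar peak of score 4.32 at 7622 bp and 2 limb peaks, one of score 4.94 at chr5:37824487-37824535, 66 bp from a gene end. The molar and the nearer limb summit at Msx1 lay 11650 bp apart. Gata3, Hey1 and Dlx6 had 1 molar peak each and none in limb; Sp7, an osteoblast factor, had 3 limb peaks and Tbx3 had 2. No gene of this list had a shared site.

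TGF-beta-Smad targets were 2 molar only (11.1%), 7 limb only (38.9%), 7 both (38.9%) and 2 neither (11.1%) out of 18, beside 14.7%, 22.7%, 29.6% and 33.0% of all genes. Limb-only members numbered 4 outside the sparse autosomes and 4 with a score of at least 4. Ltbp2, a latent TGF-beta binding protein of the matrix, had 4 molar and 3 limb peaks, with a shared site inside the gene whose peaks scored 4.31 in molar and 3.17 in limb and overlapped by 8 bp. The matrix genes divided: Tnc (tenascin-C) had 4 molar peaks and Ccn1 had 2, whereas Col1a1 had 7 limb peaks with a highest score of 5.66 and Ccn2 had 2. Cdkn1a had 4 limb peaks and Snai1 had 3. Tnc and Ccn1 lie on dense autosomes, and Col1a1 and Snai1 on sparse ones.

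Most dental mesenchyme genes had peaks in both lists when no minimum score was set. Of 35 dental mesenchyme genes 6 were molar only (17.1%), 8 limb only (22.9%), 19 both (54.3%) and 2 neither (5.71%). With a score of at least 4 the counts were 8, 10, 5 and 12. Outside the sparse autosomes 28 of these genes were 6, 5, 15 and 2, beside 19.7%, 13.8%, 36.3% and 30.2% of all genes there; the list's median gene length of 21.1 kb exceeded the 17.2 kb of all protein-coding genes. Gli2, a mediator of hedgehog signals, had 9 molar and 20 limb peaks with a shared site at chr1:118840377-118840426 of molar score 3.53 and limb score 3.30. Pax9, the paired-box factor required for the tooth bud, had 2 limb peaks, the higher of score 5.97 at chr12:56692633-56692704, and no molar peak within 10 kb. Foxf1 had 3 limb peaks with a highest score of 7.49, Lhx6 had 4 and Spry2 had 2. Of these, Foxf1 and Lhx6 lie on sparse autosomes. Molar only were Tnc, Meox2 with 2 peaks, and Alx1 and Spry4 with 1 each of scores 4.15 and 4.09.

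Dental epithelium genes gave 3 molar only (12%), 6 limb only (24%), 11 both (44%) and 5 neither (20%) out of 25. The molar-only and limb-only shares were near the 14.7% and 22.7% of all genes. Shh, the signal of the enamel knot and of the limb's posterior margin, had 5 limb peaks with a highest score of 5.92 and no molar peak, on sparse chromosome 5. Wnt10a had 6 limb peaks, Tbx1 had 5, and neither had a molar peak although both lie on dense autosomes. Sox2, a marker of dental epithelial progenitors, had 2 molar peaks, and Isl1 and Foxi3 had 1 each. The 3 scored 3.77, 3.96 and 3.605 at most, so none kept a peak with a minimum score of 4.

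Limb patterning genes were the list most exposed to the sparse autosomes, which hold 22 of its 35 members, the HoxD cluster among them. In all, 2 were molar only, 10 limb only, 14 both and 9 neither. Of the 13 members elsewhere 2 were molar only, 2 limb only, 8 both and 1 neither. Hoxa13 and Hoxc10 were molar only, with 1 peak of score 3.88 and 2 peaks with a highest score of 4.65; Hoxa13 is needed for the digits. Pitx1, which sets hindlimb identity, had 4 limb peaks and En1 had 2, on dense autosomes, and Lhx2 had 6 on chromosome 2. Hoxd13 had neither. Ptch1, the hedgehog receptor, had 6 molar and 4 limb peaks, and its shared site at chr13:63567893-63568015 had an overlap of 121 bp and scores of 3.27 in molar and 3.19 in limb.

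Cartilage is a tissue that limb buds form at this stage and molar germs do not. Of 24 cartilage genes 1 was molar only (4.17%), 9 limb only (37.5%), 13 both (54.2%) and 1 neither, beside 14.7%, 22.7%, 29.6% and 33.0% of all genes. Outside the sparse autosomes 11 of 15 had both, beside 36.3% of all genes there, 3 were limb only and 1 was molar only. With a score of at least 4, 4 of the 24 had both. Sox5, a partner of Sox9, had 22 molar and 9 limb peaks over its 954 kb and a shared site of scores 4.37 in molar and 3.21 in limb. Comp, a cartilage matrix gene, had 1 molar and 2 limb peaks and a shared site 7844 bp away, of scores 4.48 and 3.67. Sox9 had 1 limb peak of score 6.29 and no molar peak, on sparse chromosome 11. Matn4, Col9a3 and Snorc had 2, 4 and 2 limb peaks, and Col10a1, of hypertrophic cartilage, 1 molar peak.

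**Figure D5:**
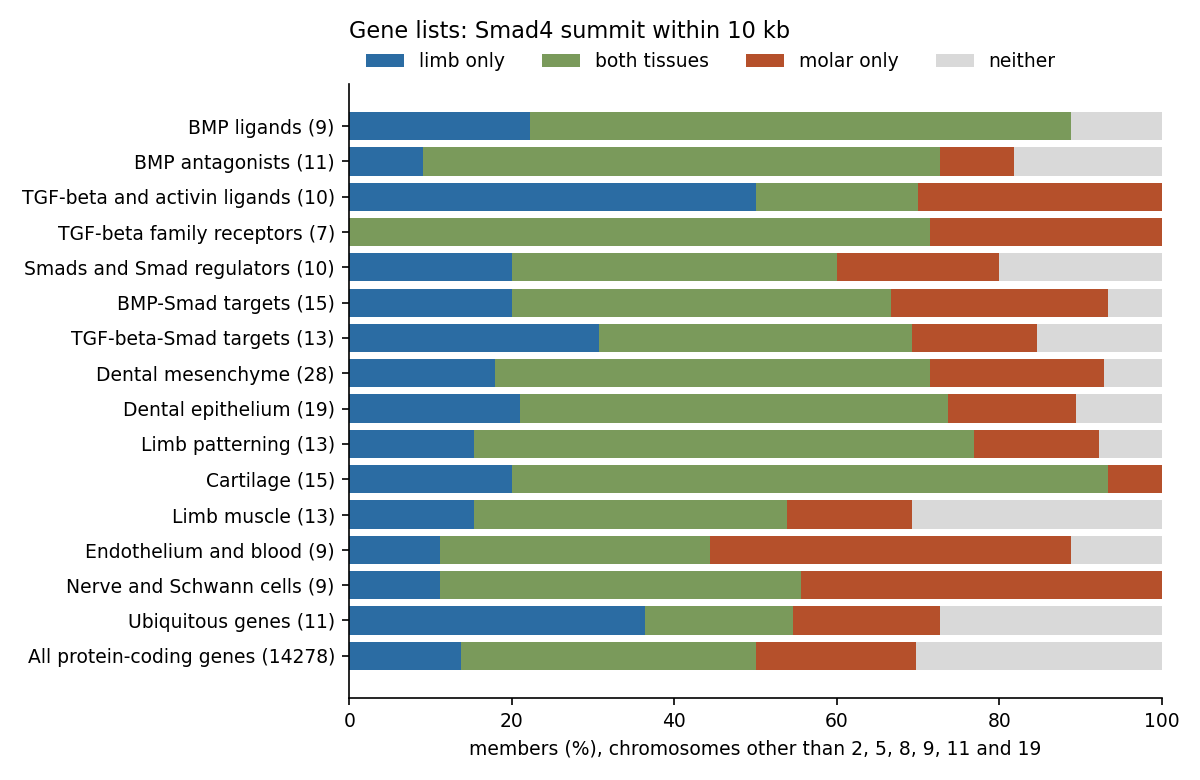
Members of each gene list (y axis, number of members in brackets) on chromosomes other than 2, 5, 8, 9, 11 and 19, in percent (x axis), with Smad4 summits within 10 kb in limb only (blue), both tissues (green), molar only (orange) or neither (grey). The lowest bar gives all 14278 protein-coding genes there, of which 13.8%, 36.3%, 19.7% and 30.2% fall in these classes; each list bar rests on 7 to 28 genes.

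Lists of other cell types that either tissue could hold gave mixed counts, to be read beside the same shares of all genes. Muscle genes, of cells that migrate into the limb, were 3 molar only, 5 limb only, 5 both and 5 neither out of 18. Met, the receptor that muscle precursors need to migrate, had 3 molar peaks, each of score 4 or more, and no limb peak, while Myh3 had 4 limb peaks and Lbx1 had 2. Endothelial and blood genes were 4 molar only, 3 limb only, 8 both and 1 neither out of 16, with Tek and Tie1, the angiopoietin receptors, at 2 molar peaks each and Sox18 at 3 limb peaks. Nerve genes were 4, 4, 4 and 2 out of 14; Elavl4 had 5 molar peaks, Erbb3 had 4 and Ngfr had 6 limb peaks. Of 20 genes that nearly all cells express, 2 were molar only, 8 limb only, 3 both and 7 neither, and Eef2 had 6 limb peaks with a highest score of 6.09. What these lists contribute to the tissue difference was not tested.

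The strongest restricted peaks lay apart from the developmental lists. In molar the first was inside Emp2, a membrane protein gene, at chr16:10284491-10284555 with score 13.97, and it overlapped molar pSmad1/5. The second, the fourth and the fifth were at Cwc22, a splicing factor gene, with scores of 9.85, 8.82 and 8.80, and the third was inside Fzr1, a regulator of the anaphase-promoting complex, with 9.50. Cwc22 had 29 molar and 2 limb peaks within 10 kb; it lies in a segment known to vary in copy number between mouse stocks, so its values are uncertain. In limb the first was inside Aida with score 28.7. Sites nearest to Tcp10c (48504 bp, score 20.2) and Tcte2 (164318 bp, 13.51), genes with close relatives on chromosome 17, were also uncertain for that reason. The remaining 2 were inside Eps8 (16.5) and 18117 bp from Cpne4 (11.7).

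Genes with the most peaks in a single tissue were long genes of the chromosomes on which that list is dense. Molar only were Setbp1 with 19 peaks over 360 kb, Diaph2 with 17 over 716 kb, Clcn5 with 15, Cntnap5b with 13 and Hs3st4 with 12. At each of these 5 genes 0 or 1 peak scored 4 or more. Limb only were Cdh22, a cadherin gene, with 19 peaks over 123 kb, Pitpnm2 with 17, and Flrt1 and Hmcn2 with 16 each. Of the Cdh22 peaks 9 scored 4 or more, and of those at Pitpnm2 7 did. These 4 limb-only genes lie on chromosomes 2, 5 and 19, where the molar list is sparse, and the 5 molar-only genes on chromosomes 1, 7, 18 and X.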

How the data were processed

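ChIP-seq libraries of Smad4 and pSmad1/5 from molar and limb were analysed as peak lists. Per the labels, the peak lists are the authors' output of BCP (TF mode), 1 per library. The submitters' processing notes name the build mm10 and the tools bcl2fastq, Bowtie2, SAMtools, bedtools and deepTools, without versions or roles. The use of the inputs and the handling of duplicates and problem regions are not given in the sources used here. The deposited lists give the authors' enrichment score of each peak, used here to rank or filter peaks. The same minimum score was applied to both lists, and shared sites were ranked by the lower of their 2 scores. The scale of the score is not given, so equal scores need not mean the same in the 2 lists. The deposited p-value, 0.000999 at most, served as a filter in an alternative only. Overlaps, distances to RefSeq genes on GRCm38.p6 (same coordinates as mm10) and counts were computed with Python 3.11.15, numpy 2.4.6, pandas 2.3.3 and scipy 1.17.1, and figures drawn with matplotlib 3.10.9. The gene table gives no strand, so gene end means either end; strand came from the promoter table (17492 of 21887 protein-coding genes, none on chromosome 18). Exons and introns were not told apart. Overlap counting was tested on simulated data.

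The members and the 15 gene lists were chosen with earlier results of these data known. Genes were named by a rule: the nearest genes of the 10 shared sites with the highest lower score and of the 5 highest-scoring restricted peaks per tissue; list members with a shared site, and up to 4 members per list and tissue with peaks in that tissue only, by number of peaks and then score; the 5 genes with the most peaks in a single tissue; and Msx1, Pax9, Bmp4, Smad4, Smad7, Id1, Shh, Sox9, Hoxd13 and Grem1. Promoter sequences and genes with promoter peaks were shown for their windows. Other names were chosen after their values were seen. A gene that the rule selects is not reported here. Alternatives were stricter overlap, summit distances, minimum scores and p-values, equal numbers of peaks per chromosome, leaving out sparse chromosomes, and other gene distances.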

Additional observations from a re-analysis of the deposited data

How the results depend on the processing

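Of 55 alternative values of the main results 27 stayed within their interval or, for counts, within 1.5 times, and 28 did not. The share of molar peaks shared with limb was 0.295% when the overlap had to cover at least 50% of the shorter peak, 0.619% and 2.56% for summits within 100 and 500 bp, 0.0971% with a score of at least 4 and 0.0821% with a p-value of at most 1e-05. The limb share was 0.343%, 0.736%, 3.10%, 0.0918% and 0.0723% in that order, 0.394% with equal numbers per chromosome and 0.727% without the 6 sparse chromosomes. The gene-end share of shared molar peaks was 28.6% with a score of at least 4 (7 peaks), 11.1% at 500 bp and 37.3% at 5 kb. For molar-restricted peaks it was 6.36%, 2.63% and 16.8%, and 5.17% with equal numbers. For limb-restricted peaks it was 27.3%, 12.03%, 36.9% and 18.98%. Limb-only genes numbered 1964 without the sparse chromosomes. Genes with both numbered 1787 with a score of at least 4, 1843 with the p-value limit and 12261 within 50 kb. Shared molar peaks with pSmad1/5 of either tissue were 6.54%, beside 0.854% of restricted molar peaks, and 0 of 7 with a score of at least 4. That contrast is a description, since the rule places shared molar peaks on limb peaks. The cause of each of these moves was not tested. Of 150 list counts 95 stayed within 1.5 times.

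No paired analysis was possible because each tissue and antibody has 1 library, and no library was left out for the same reason. Read depth is unknown, so a site missing from a list is not shown to be unbound, and the lengths of lists do not measure binding.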
